A study of Mus musculus with 9 samples.

Results

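The AP-1 transcription factor genes were described in periprostatic fat, the adipose tissue around the prostate, of male mice on a high fat or a low fat diet. The set was chosen with earlier results of these data known. It holds 10 genes, namely Fos, Fosb, Fosl1, Fosl2, Jun, Junb, Jund, Atf3, Maff and Batf3. For 9 of the 10 the array has a probe set that carries only that gene's symbol, and these 9 were analysed among 22180 genes in all. The probe set of Fosl1 is shared by 2 genes, so Fosl1 was not analysed here. The high fat group was 5 C57BL/6J mice whose diet held 60 percent of its energy as fat, and the low fat group was 4 mice of the same strain whose diet held 10 percent. All mice were male, carried no genetic change that the labels name, began their diet at 6 weeks of age and were killed after 12 weeks on it, aged 18 weeks. RNA of whole tissue from 1 mouse was put on 1 array, with no pooling. Values are log2 expression, and differences are high fat minus low fat.

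AP-1 is a dimer of proteins with a basic region that binds DNA and a leucine zipper (together called bZIP) that joins the partners. Fos proteins need a Jun partner to bind, whereas Jun proteins can also pair with each other, and the Atf, Maf and Batf proteins extend the choice of partners and of DNA sites. Several of these genes are immediate early genes, transcribed soon after growth factors, cytokines or stress through kinases such as JNK, ERK and p38 and then shut off again. In fat tissue they are used by adipocytes, stromal cells and macrophages. In bulk tissue a change in the number of cells of a type and a change in RNA per cell cannot be told apart.

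Adipocyte markers fixed as a list (Adipoq, Lep, Plin1 and others) averaged 11.6 to 11.8 in high fat mice and 12.0 to 12.1 in low fat mice, well above 6.96, the median of all gene means. Skeletal muscle markers were high in high fat mouse 1, where the list averaged 8.61, while it averaged 6.29 to 6.40 in high fat mice 2 to 5, and reached 7.24 in low fat mouse 4. Smooth muscle markers averaged 10.9 in low fat mouse 2 and at most 8.67 in each of the other mice. Over all rows, 2 arrays were slightly wider: high fat mice 1 and 2 both had SD 1.87 and median 6.45, where the remaining 7 had SDs of 1.83 to 1.84 and medians of 6.48 to 6.50. Diet was tested for all genes in 1 limma fit with Benjamini-Hochberg adjustment, and a gene was said to rise or fall at an adjusted p under 0.05, as 21.5% of all genes did. Of these genes 2742 were higher and 2026 lower, a split that was 2227 and 3056 with arrays centred on their medians and 2320 and 2771 with quantile normalization repeated.

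Of the 9 AP-1 genes, 7 rose in high fat diet, compared with 12.4% of all genes, and 0 fell, compared with 9.13%. Jun and Jund did not pass the test. The members were chosen with earlier results of these data known, so they are not an unselected set. The members' median difference was 0.43, against a median of -0.001 over all genes tested. All high fat mice lay above all low fat mice in 5 of the 9 members and in 11.6% of all genes. The shares of all genes given here and below include dim genes. With dim genes (mean below the median of all values) left out, all 9 members remained and 7 rose, while 2551 of 11107 genes rose. Atf3 and Fos rose by more than 1 log2 unit each, and the other 5 rose by 0.24 to 0.51.

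**Figure D1:**
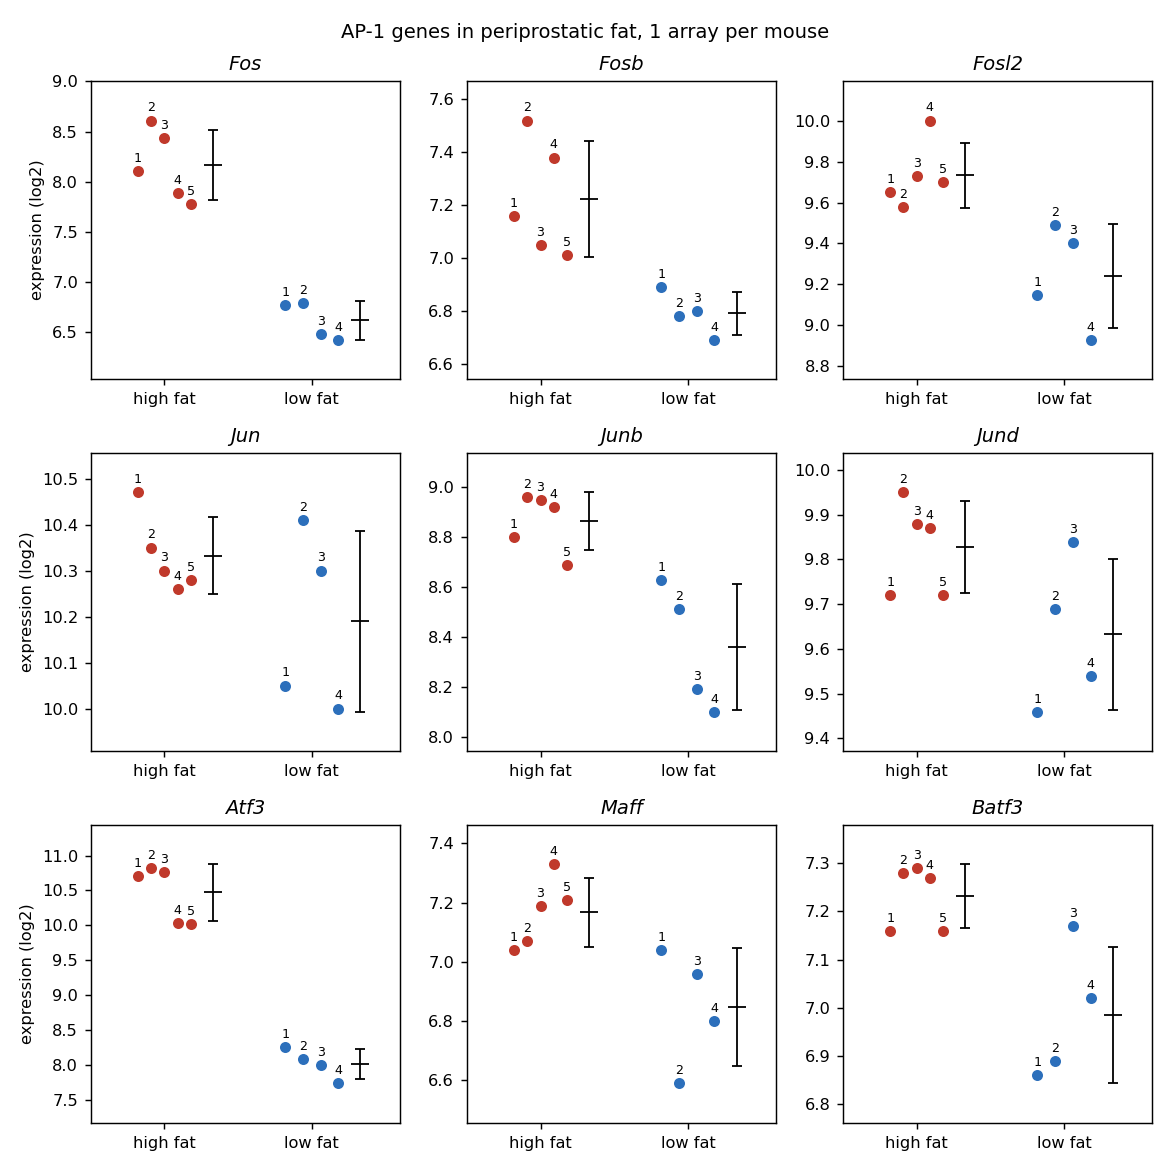
Expression (log2) of the 9 AP-1 genes in each mouse, high fat mice in red and low fat mice in blue, numbered as in the labels, with the mean and SD of each diet in black; each panel has its own axis, which does not start at 0. Atf3 and Fos show wide gaps between the diets. The lowest high fat value of Atf3 is 10.02 and its highest low fat value 8.26. The diets overlap in Jun and Jund. They also meet in Maff, at 7.04, and in Batf3, where the highest low fat value is 7.17 and the lowest high fat value 7.16.

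Among the Fos genes, Fos is the founding member of the family and has an unstable transcript and protein. Fos was at 8.11, 8.61, 8.44, 7.89 and 7.78 in high fat mice 1 to 5, against 6.77, 6.79, 6.48 and 6.42 in low fat mice 1 to 4. Every high fat mouse lay above every low fat mouse, and high fat mice 2 and 3 were the highest. The high fat mean was 8.16 ± 0.35 (SD, n = 5) and the low fat mean 6.61 ± 0.19 (SD, n = 4). The difference for Fos was 1.55 ± 0.17 (SE), a 2.92-fold increase with a limma adjusted p of 0.000231, and it ranked 82 among 22180 genes by size of increase. The low fat mean of Fos lay below the median of all gene means, and no detection calls were used, so whether it lies above background was not determined.

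Fosb is a close relative of Fos that also gives a truncated, long-lived protein. It was at 7.16, 7.52, 7.05, 7.38 and 7.01 in high fat mice 1 to 5, against 6.89, 6.78, 6.80 and 6.69 in low fat mice 1 to 4. The diets did not overlap, but the lowest high fat mouse lay only 0.12 above the highest low fat mouse. Fosb rose by 0.43 ± 0.10 (SE), 1.35-fold, with a limma adjusted p of 0.0141, and its full-length and truncated forms were not separated. Fosl2 encodes Fra-2, a Fos protein without the strong activation domain of Fos. Fosl2 was at 9.65, 9.58, 9.73, 10.00 and 9.70 in high fat mice 1 to 5, against 9.15, 9.49, 9.40 and 8.93 in low fat mice 1 to 4. Again the diets did not overlap, and the highest was high fat mouse 4, which was among the lower high fat mice for Fos. Fosl2 rose by 0.49 ± 0.12 (SE), 1.40-fold, with a limma adjusted p of 0.0155.

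Among the Jun genes, which encode the partners of the Fos proteins, only Junb passed the test. Junb was at 8.80, 8.96, 8.95, 8.92 and 8.69 in high fat mice 1 to 5, against 8.63, 8.51, 8.19 and 8.10 in low fat mice 1 to 4. The diets were separated by a gap of 0.06, between high fat mouse 5 and low fat mouse 1. Junb, a weaker activator than Jun, rose by 0.51 ± 0.11 (SE), 1.42-fold, with a limma adjusted p of 0.00936. With high fat mice 1 and 2 left out, the difference of Junb was 0.50 and its adjusted p 0.0532.

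Jun, the main target of JNK, was at 10.47, 10.35, 10.30, 10.26 and 10.28 in high fat mice 1 to 5, against 10.05, 10.41, 10.30 and 10.00 in low fat mice 1 to 4. Low fat mouse 2 was above all high fat mice except mouse 1. The difference of 0.14 had a 95% interval from -0.05 to 0.34 and a limma adjusted p of 0.291, and the upper bound of that interval corresponds to a 1.26-fold increase. Jund, which unlike Jun is transcribed at a steady level in resting cells, was at 9.72, 9.95, 9.88, 9.87 and 9.72 in high fat mice 1 to 5, against 9.46, 9.69, 9.84 and 9.54 in low fat mice 1 to 4. Low fat mouse 3 lay within the range of the high fat mice and the other low fat mice below it. The difference of Jund was 0.20, with a 95% interval from 0.02 to 0.38, an unadjusted p of 0.0359 and a limma adjusted p of 0.121. Without low fat mouse 3 it was 0.26 and passed (adjusted p = 0.0362). A second, dimmer probe set of Jund, not used in the fit, averaged 7.40 in high fat mice and 7.32 in low fat mice.

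Atf3 encodes a stress-induced factor of the ATF/CREB family that pairs with Jun proteins and represses transcription as a homodimer. In mouse macrophages it is known as a brake on Toll-like receptor responses. Atf3 was at 10.71, 10.82, 10.77, 10.04 and 10.02 in high fat mice 1 to 5, against 8.26, 8.09, 8.0 and 7.74 in low fat mice 1 to 4. The lowest high fat mouse was 1.76 above the highest low fat mouse, and within the high fat diet mice 1 to 3 lay apart from mice 4 and 5. The high fat mean was 10.5 ± 0.41 (SD, n = 5) and the low fat mean 8.02 ± 0.22 (SD, n = 4). Atf3 rose by 2.45 ± 0.19 (SE), 5.47-fold with a 95% interval from 4.05-fold to 7.40-fold, at a limma adjusted p of 6e-05. It ranked 24 among 22180 genes by size of increase.

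Maff encodes a small Maf protein, which has a zipper but no activation domain of its own. Maff was at 7.04, 7.07, 7.19, 7.33 and 7.21 in high fat mice 1 to 5, against 7.04, 6.59, 6.96 and 6.80 in low fat mice 1 to 4. High fat mouse 1 and low fat mouse 1 had the same deposited value, and the other high fat mice lay above all low fat mice. Maff rose by 0.32 ± 0.09 (SE), 1.25-fold, with a limma adjusted p of 0.0359. Batf3 encodes a partner of Jun proteins that cross-presenting dendritic cells need to develop. Batf3 was at 7.16, 7.28, 7.29, 7.27 and 7.16 in high fat mice 1 to 5, against 6.86, 6.89, 7.17 and 7.02 in low fat mice 1 to 4. Only low fat mouse 3 reached the lowest high fat values. Batf3 rose by 0.24 ± 0.07 (SE), 1.18-fold, with a limma adjusted p of 0.0278. Maff no longer passed in 8 and Batf3 in 9 of 19 alternatives. These included both other scalings, quantile normalization (adjusted p = 0.0608 for Maff and 0.071 for Batf3) and centring (0.0579 for Maff and 0.0651 for Batf3), and leaving out high fat mouse 3 or 4 or low fat mouse 2 or 4 for either gene, high fat mouse 5 for Maff, or high fat mouse 2 or low fat mouse 1 for Batf3.

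**Figure D2:**
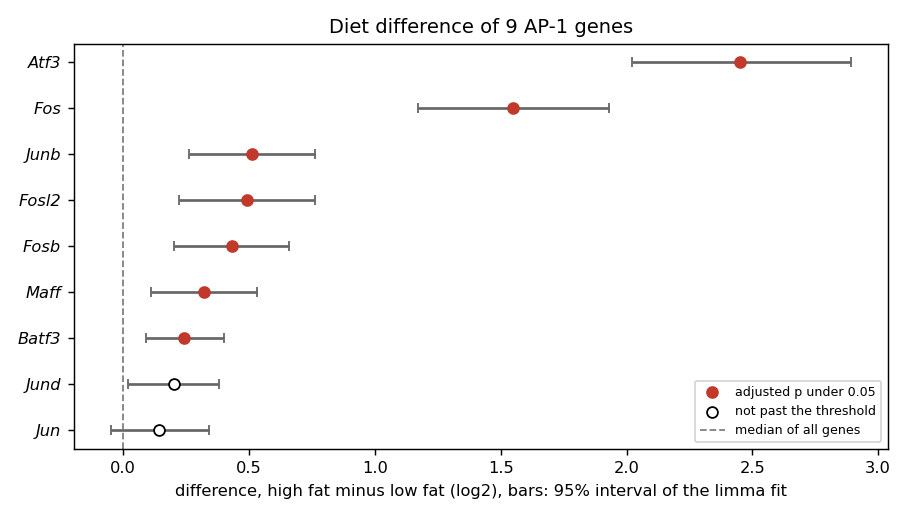
Difference between high fat and low fat mice (log2, horizontal axis) for each AP-1 gene with the 95% interval of the limma fit, filled red where the adjusted p is under 0.05 and open otherwise; the dashed line is the median of all genes. Atf3 (2.45) and Fos (1.55) lie apart from the other 7, which lie between 0.14 and 0.51.

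Whether members responded unequally was asked of the log2 ratio of each pair of genes within each array. The ratios were compared between diets with a two-sided exact permutation test over the 126 ways of dividing the mice 5 to 4, which allows no p below 0.0159, adjusted over 36 pairs. This test was chosen after the members' values had been seen, and 16 pairs passed. The diet difference of Atf3 was larger than that of Fos by 0.90 ± 0.10 (SE, exact adjusted p = 0.0357), with no overlap of the ratios between diets. The difference of Fos exceeded that of Junb by 1.04 ± 0.15 (SE, exact adjusted p = 0.0357), that of Fosb by 1.12 and that of Fosl2 by 1.06. All 8 pairs with Atf3 and all 7 other pairs with Fos passed. Among the remaining 21 pairs, Fosl2 against Jun did, at 0.35 (exact adjusted p = 0.0357). Junb against Jun, with a difference of 0.36, did not pass after adjustment (exact adjusted p = 0.101). With any 1 mouse left out, the smallest exact p rises to 0.0286 or 0.0357 and no pair passed, while the excess of Atf3 over Fos stayed between 0.83 and 0.94. In low fat mice Fos averaged 6.61, below the median of all gene means (6.96), and Atf3 averaged 8.02. Fosb (6.79) and Maff (6.85) were also below that median in low fat mice. The part of dim signal in these unequal differences was not tested.

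**Figure D3:**
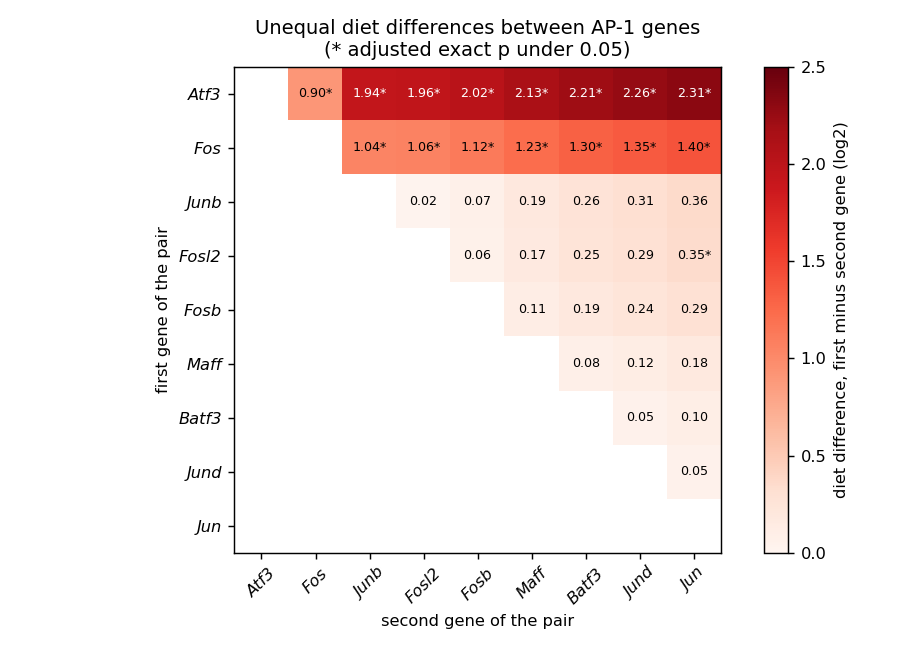
Diet difference (log2, high fat minus low fat) of the first gene of each pair, on the vertical axis, minus that of the second, on the horizontal axis, with an asterisk where the exact permutation p adjusted over 36 pairs is under 0.05. The rows of Atf3 and Fos carry asterisks throughout, and below them Fosl2 against Jun does.

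The members also differed in which mice of a diet stood high. In the high fat diet, mice 1, 2 and 3 were above mice 4 and 5 for both Atf3 and Fos. Mouse 4 was the highest for Fosl2 and Maff, and mouse 1 for Jun. Over the 9 arrays, deviations from the diet means of Fos and Atf3 had a Pearson correlation of 0.89, whereas those of Atf3 and Fosl2 had -0.20 and those of Jun and Maff -0.62. These correlations describe 9 mice, share the arrays and their scaling, and were not tested. In the low fat diet, mouse 4 was the lowest for Fos, Fosb, Fosl2, Jun, Junb and Atf3.

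**Figure D4:**
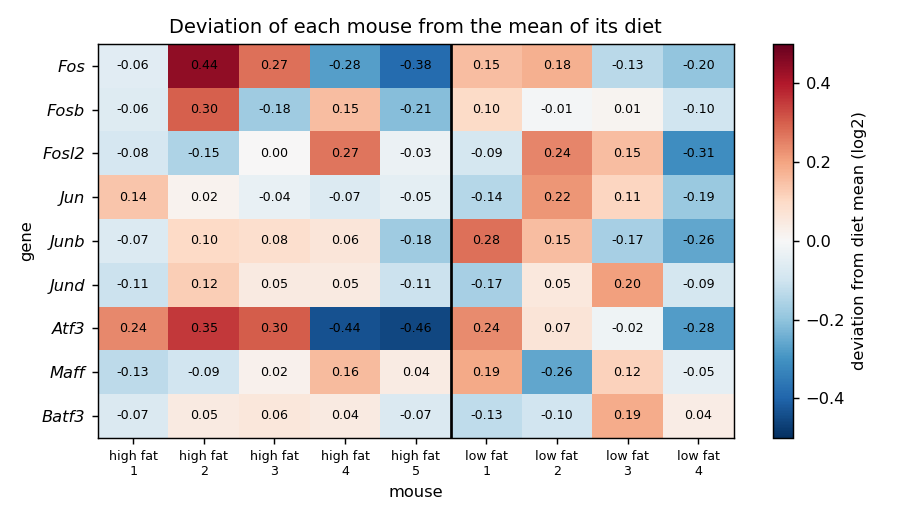
Deviation of each mouse (columns) from the mean of its own diet (log2) for each AP-1 gene (rows), red above and blue below the mean, with the vertical line between high fat and low fat mice. Fos and Atf3 are both lowest in high fat mice 4 and 5 within that diet, at -0.28 and -0.38 for Fos and -0.44 and -0.46 for Atf3, whereas Fosl2 is highest in high fat mouse 4, at 0.27.

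For the marker counts below, 12.4% of all genes rose in high fat diet and 9.13% fell. All 9 macrophage markers, among them Adgre1, Cd68 and Csf1r, rose, with a median difference of 0.92. Their mean was 11.38, 11.47, 11.61, 11.04 and 11.18 in high fat mice 1 to 5, against 10.42, 10.13, 10.36 and 10.09 in low fat mice 1 to 4. High fat mice 4 and 5, which had the lower Atf3 and Fos values of that diet, also had the lower macrophage means, whereas Fosl2 and Maff were highest in mouse 4, which had the lowest. Of 7 lipid-associated macrophage markers 6 rose, with list means of 11.1 to 11.7 in high fat mice and 8.63 to 9.19 in low fat mice. Of 8 adipocyte markers 7 fell and 1 rose. The part of these cell types in the AP-1 differences was not tested. Fibroblast and progenitor markers rose in 4 of 7 and endothelial markers rose in 1 and fell in 1 of 6. Lymphocyte markers fell in 1 of 7, and neutrophil and mast cell markers rose in 1 and fell in 1 of 7. Counts of 1 in lists this short lie near the shares of all genes. Of the mesothelial, smooth muscle, skeletal muscle, and prostate and seminal vesicle markers 0 passed limma.

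The genes whose deviations from the diet means were most like those of Atf3, among 10630 genes with a mean at or above the median, were Noct (Pearson correlation 0.989 over 9 arrays), Hk3 (0.987) and Cacna1d (0.985), which encode the clock-regulated enzyme nocturnin, a hexokinase and a calcium channel subunit. Hk3 was at 8.22, 8.37, 8.40, 7.61 and 7.68 in high fat mice 1 to 5, against 7.11, 7.04, 6.92 and 6.63 in low fat mice 1 to 4. High fat mice 1 to 3 were above mice 4 and 5, as with Atf3, but Hk3 was picked for this likeness. The diets did not overlap in Hk3. The correlations given here are the highest of 10630 over 9 arrays, were picked for their size and were not tested. Most like Fos were Apbb3 (0.966), an adaptor that binds the amyloid precursor protein, Aurka (0.956), a mitotic kinase, and Rap2b (0.953), a small GTPase. Apbb3 nevertheless fell by 0.46 in high fat diet, and Rap2b, at 0.22, did not pass (limma adjusted p = 0.152).

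Promoter sequence of all 9 members was read from RefSeq (GRCm38.p6), as the 250 bases before each start, with 3 starts for Maff. The sites searched on both strands were the AP-1 site TGACTCA, the cyclic AMP response element TGACGTCA, its core TGACG, which overlaps every full element, the CArG box bound by serum response factor, and TATAAA. The promoters of Atf3 and Fos, the members with the largest differences, and of Jun, the member with the smallest, are given 5′ to 3′ with matches other than TATAAA in capitals.
Atf3, chr1:191183334-191183583, minus strand: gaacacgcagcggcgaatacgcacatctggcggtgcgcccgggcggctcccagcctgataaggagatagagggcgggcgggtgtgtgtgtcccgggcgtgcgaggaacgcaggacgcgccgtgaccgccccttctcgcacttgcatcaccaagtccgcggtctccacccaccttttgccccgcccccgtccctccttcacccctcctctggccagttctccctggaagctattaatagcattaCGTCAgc
Fos, chr12:85473640-85473889, plus strand: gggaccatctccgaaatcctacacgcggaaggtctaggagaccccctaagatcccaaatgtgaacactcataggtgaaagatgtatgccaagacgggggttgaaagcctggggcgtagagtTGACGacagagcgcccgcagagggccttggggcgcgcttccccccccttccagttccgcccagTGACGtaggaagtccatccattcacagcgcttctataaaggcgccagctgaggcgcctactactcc
Jun, chr4:95052223-95052472, minus strand: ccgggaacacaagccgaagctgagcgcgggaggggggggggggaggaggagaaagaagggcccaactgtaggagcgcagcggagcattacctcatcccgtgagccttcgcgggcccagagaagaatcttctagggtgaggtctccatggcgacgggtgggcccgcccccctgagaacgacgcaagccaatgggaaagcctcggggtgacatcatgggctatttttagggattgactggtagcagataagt
In Fos the core began 129 and 66 bases before the start, with TATAAA at 33 bases, which 12.4% of all windows hold. In Atf3 the core lay on the opposite strand, 7 bases before the start, and Jun had no exact match in this window. The Jun window does hold tgacatca, which differs from the full element by 1 base. The Atf3 window holds ttacgtca and the Fos window tgacgaca, which also differ from it by 1 base. Sequences 1 base away were not among the sites searched. Across the members the core was found in Atf3, Fos, Fosb, Junb and Maff, and it was found in 17.8% of 32851 promoter windows of this length. The full element was found in 1 Maff window and in 1.55% of all windows. No member's window held TGACTCA, found in 4.46% of all windows, or a CArG box, found in 1.47%. Sequence farther than 250 bases before a start was not searched, so sites lying there are missed. Such matches describe letters in these windows and not binding.

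Of 10 other bZIP genes tested, 2 rose and 1 fell, where 12.4% of all genes rose and 9.13% fell, and the median was 0.09. Jdp2, a partner of Jun that represses AP-1 sites, rose by 0.43 ± 0.09 (SE, limma adjusted p = 0.00611), and Nfe2l2, which encodes the oxidative stress factor Nrf2, by 0.21 (adjusted p = 0.0187). Atf7, a relative of Atf2 that p38 and JNK phosphorylate, fell by 0.23 (adjusted p = 0.022). Batf, a relative of Batf3, was at 0.20 and did not pass (adjusted p = 0.0592). With high fat mice 1 and 2 left out, 0 of the 10 passed limma (Jdp2 at 0.38, adjusted p = 0.051), and without low fat mouse 3 only Jdp2 did. Atf7 also did not pass without high fat mouse 3 or low fat mouse 2, and Batf passed without high fat mouse 4 (adjusted p = 0.0383).

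Of 16 kinases and factors upstream of AP-1, 2 rose, a share of 12.5% where 12.4% of all genes rose. Another 3 fell, a share of 18.8% where 9.13% of all genes fell, and the list's median was 0.03. Map3k8, which encodes the kinase Tpl2 that couples Toll-like receptors to ERK, averaged 8.77 in high fat mice and 8.25 in low fat mice, a rise of 0.53 ± 0.08 (SE, limma adjusted p = 0.000953). Map2k3, a p38 activator, rose by 0.19, but did not pass with arrays centred (adjusted p = 0.0566) or without high fat mice 1 and 2 (0.096). Elk1, an ERK-driven activator of Fos transcription, fell by 0.32 ± 0.04 (SE, limma adjusted p = 0.000837). Map3k5, which encodes the stress kinase ASK1, fell by 0.34, and Mapk9, the JNK2 gene, by 0.24. Mapk8, the JNK1 gene, was at -0.10 (adjusted p = 0.236) and Srf, the serum response factor gene, at 0.02 (adjusted p = 0.815). Map2k3, Mapk8 and Srf were named after their values were seen. Transcript levels of kinases do not report their activity, and some genes of this list were not analysed here.

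Among 9 dual specificity phosphatases, which switch off these kinases, 2 rose and 1 fell, so that 33.3% were called, compared with 21.5% of all genes, and the median was 0.21. Dusp5 rose by 0.58 ± 0.11 (SE, limma adjusted p = 0.00518) and Dusp6 by 0.38 (adjusted p = 0.0246), both directed at ERK. Dusp4 fell by 0.55 (adjusted p = 0.0272), and Dusp16, directed mainly at JNK, was at -0.23 and did not pass (adjusted p = 0.059). Dusp6 depended on the choice of probe set, since the mean of its probe sets differed by 0.17 and did not pass (adjusted p = 0.0895). With high fat mice 1 and 2 left out, neither Dusp6 (adjusted p = 0.115) nor Dusp4 (0.104) passed, and without high fat mouse 2 only Dusp5 of the 9 did. Dusp6 also did not pass without high fat mouse 3 or low fat mouse 3, and Dusp4 did not without high fat mouse 1 or 5 or low fat mouse 2 or 4. Dusp16 passed with quantile normalization (-0.28, adjusted p = 0.0251), with centring (-0.28, adjusted p = 0.03), with dim genes left out (adjusted p = 0.0382) and without low fat mouse 1 (-0.30, adjusted p = 0.0113).

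Of 15 textbook AP-1 target genes tested, 13 rose and 1 fell, where 12.4% of all genes rose and 9.13% fell. Il6 did not pass, and the median of the list was 0.83. This list too was chosen with earlier results of these data known. Hmox1, the heme oxygenase 1 gene, averaged 10.3 in high fat mice and 8.80 in low fat mice, a rise of 1.53 ± 0.13 (SE, limma adjusted p = 7.74e-05). Timp1, an inhibitor of metalloproteinases, rose by 2.48 and Mmp3, stromelysin 1, by 1.69. Mmp9, gelatinase B, averaged 7.85 in high fat mice and 9.55 in low fat mice, and so fell by 1.70 ± 0.15 (SE). Il6, the interleukin-6 gene, averaged 4.94 in high fat mice and 4.97 in low fat mice, below the median of all gene means, and was named after its values were seen. Several targets, such as Mmp12, are also macrophage genes, and the part of the rise in macrophage markers in this count was not tested.

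Of 17 other early response genes, 4 rose, 0 fell and 13 did not pass, with a median of 0.15. The share of the list called, 23.5%, held only rises. Of all genes 12.4% rose and 9.13% fell, so that 21.5% were called in either direction. Gadd45b, a stress-induced growth arrest gene, rose by 1.73 ± 0.23 (SE, limma adjusted p = 0.000538). Egr2, a zinc finger factor, was at 9.09, 9.46, 9.37, 8.96 and 9.11 in high fat mice 1 to 5, against 7.77, 7.46, 8.01 and 7.95 in low fat mice 1 to 4. The diets did not overlap in Egr2, and it rose by 1.40 ± 0.13 (SE). The Krüppel-like factor genes Klf4 and Klf6 rose by 0.52 and 0.30. Egr1, a relative of Egr2 that is commonly induced together with Fos, was at 7.57, 8.13, 7.89, 8.07 and 8.0 in high fat mice 1 to 5, against 8.37, 8.23, 7.98 and 7.18 in low fat mice 1 to 4. The diets overlapped throughout, and the difference of -0.01 had a 95% interval from -0.50 to 0.48 (limma adjusted p = 0.983). Nr4a1, an orphan nuclear receptor gene, was at 0.11 with an interval from -0.36 to 0.58, Ier2 at 0.15 with an interval from -0.06 to 0.36, and Zfp36, whose product destabilises cytokine transcripts, at 0.05 with an interval from -0.11 to 0.20. Egr1, Nr4a1, Ier2 and Zfp36 were named after their values were seen.

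**Figure D5:**
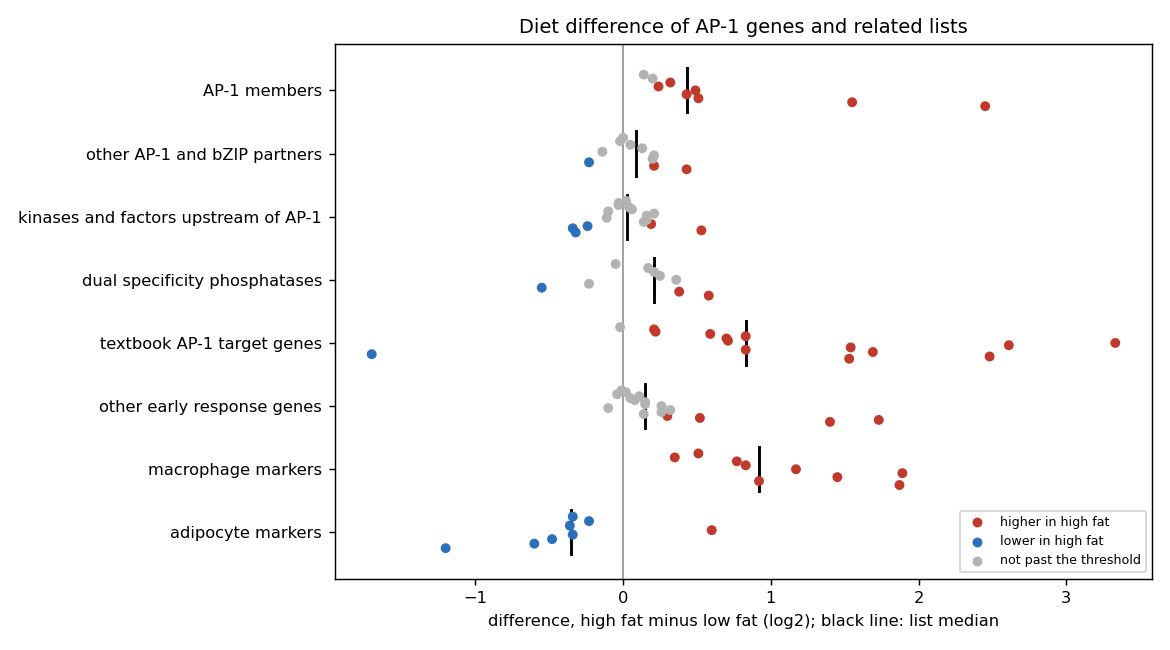
Difference between high fat and low fat mice (log2, horizontal axis) for each gene of the AP-1 set, the related lists, and the macrophage and adipocyte markers, coloured by the limma call, with a black line at each list's median. The medians are 0.43 for the AP-1 genes, 0.83 for the target genes and 0.92 for the macrophage markers, and between 0.03 and 0.21 for the other bZIP genes, upstream kinases, phosphatases and other early response genes.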

How the data were processed

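Affymetrix Mouse Gene 2.0 ST arrays measured periprostatic fat RNA of 9 mice. The deposited values are log2 expression per probe set, between 4.41 and 14.2; RMA, limma and R 3.5.0 are named per the submitters' processing notes, with no role or order, and row filters and scan dates are not stated there. Of 33793 rows, 23521 had exactly 1 gene symbol, and the brightest probe set per symbol was kept, which left 22180 genes. The diet test was limma's moderated linear model (version 3.58.1, R 4.3.3, lmFit then eBayes with defaults) on all 9 arrays with no covariate, Benjamini-Hochberg adjustment over all genes and a threshold of 0.05. The SE is limma's moderated one. The number of arrays limits the precision. On simulated data for this comparison of 22180 genes, where 50 genes were changed at each size, the fit found 19 genes of log2 size 0.25, 33 genes of size 0.5, 48 genes of size 1 and all 50 of size 2, and 8 of its 158 calls were false. The real data gave 4768 calls, so the cutoff on the unadjusted p was stricter in the simulation. Its counts therefore do not give the recovery rates of the real comparison. All 10 members were to be named whatever their values, with the 4 genes of smallest p in each related list and the 3 genes most like Atf3 and Fos in their deviations from the diet means, leaving out predicted gene models. The members and the lists were chosen with earlier results of these data known. The labels number the mice but do not say whether the numbers pair the diets, and the main fit used no pairing. The correlation of deviations of same-numbered mice ran from 0.0479 to 0.126, which does not decide whether they were paired. Promoters came from RefSeq tables of GRCm38.p6. Alternatives covered normalization, centring, dim genes, the choice among probe sets, a skeletal muscle covariate, leaving out mice, testing all rows, a block for mouse number, weights per array and the variance model.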

Additional observations from a re-analysis of the deposited data

Results flagged for a closer look

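Of 58 groups of mice checked over 29 named genes, 2 held a mouse far from the others by Dixon's criterion at the 95% level, and chance alone marks about 1 group in 20. Low fat mouse 4 was at 6.44 for Batf, while low fat mice 1 to 3 were at 6.66 to 6.69. The same mouse was at 10.06 for Mmp9, while low fat mice 1 to 3 were at 9.33 to 9.43. None of the 9 AP-1 genes had such a mouse in either diet.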

How the results depend on the processing

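Fos, Fosb, Fosl2, Jun and Atf3 kept their direction and their side of the threshold in all 19 alternatives, and 0 of the 9 members changed sign. Of 38 other genes given in the text, Srf, Il6, Egr1, Nr4a1 and Zfp36, which did not pass in any alternative, changed sign in some. With 1 mouse left out their differences ran from -0.01 to 0.06 for Srf, -0.07 to 0.07 for Il6, -0.26 to 0.13 for Egr1, -0.09 to 0.29 for Nr4a1 and -0.01 to 0.09 for Zfp36. Quantile normalization gave -0.02 for Srf, 0.01 for Il6 and 0.00 for Zfp36, centring -0.02 for Srf, and array weights 0.01 for Il6 and 0.06 for Egr1. Without high fat mice 1 and 2 Egr1 was at 0.04 and Nr4a1 at -0.06, and with the muscle covariate Egr1 was at 0.07. Atf3 ranged from 2.26 to 2.57 and Fos from 1.42 to 1.64. The number of AP-1 genes called, 7 with all mice, ranged from 5 to 8 when 1 mouse was left out and was 5 with quantile normalization repeated, with centring, or without high fat mice 1 and 2 together. Without those mice the counts were 0 for other bZIP genes and 1 for phosphatases, 1716 genes in all were higher, and the excess of Atf3 over Fos was 0.84 and of Fos over Junb 0.92 in a test that cannot pass at this size (smallest exact p = 0.0571). With arrays centred on their medians 3056 genes in all were lower. When 1 mouse was left out, 1 to 4 other bZIP genes and 1 to 4 phosphatases were called, and the excess was 0.83 to 0.94 for Atf3 over Fos and 0.95 to 1.12 for Fos over Junb, with no pair passing after adjustment over the 36 pairs (smallest exact p = 0.0286 or 0.0357, smallest adjusted p from 0.0605 to 0.0804). The causes of these changes were not tested, beyond fewer mice. Of 18 lost calls among members, 8 were Maff's, 9 Batf3's and 1 Junb's, and Jund gained 1. With the mouse number as a replicate block, the count of members called was 7 and that of all genes 5031, against 4768 without it; 3 of 8 mice correlated best with the mouse of their own number in the other diet, and of the 47 genes refitted with the block, only Batf changed its call, at 0.20 (adjusted p = 0.0456). Besides the changes of call given with the related lists, Nfe2l2 (0.20) did not pass without low fat mouse 3, nor Mapk9 (-0.22) without low fat mouse 4 or Klf6 (0.30) without high fat mice 1 and 2. Fosb, Maff and Batf3 lay near the median of all gene means (6.96 log2), and the deposited values give no background signal to set them against.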
